A study of Mus musculus with 8 samples.

Results

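Chemokines are small secreted proteins that attract leukocytes through G-protein-coupled receptors, and they fall into the CC and CXC families by the spacing of their first cysteines. Inflammatory cytokines such as IL-1β, TNF-α and IL-6 signal through their own receptors, and IL-1β and TNF-α induce many chemokine genes through the transcription factor NF-κB. In pancreatic islets these genes are expressed by β-cells, endothelial cells, fibroblasts and resident macrophages, and their products are known for attracting leukocytes in islet inflammation and for impairing β-cells. The genes described here are all mouse genes on the array with a *Ccl* or *Cxcl* symbol followed by a number, together with *Il1a*, *Il1b*, *Il1rn*, *Il6*, *Il10*, *Il11*, *Il15*, *Il18*, *Il24*, *Il33*, *Tnf*, *Lif* and *Csf1*. They came to 45 genes read by 70 probes, among 26894 genes with a symbol and 56605 probes in all.

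RNA was measured in islets of 4 βUCP2Tg samples and 4 wild-type (WT) samples, on one-colour arrays on which each probe's brightness rises with the amount of its transcript. βUCP2Tg mice carry a *Ucp2* cDNA under the rat insulin 2 promoter, so that the transgene is driven in β-cells, on a C57BL6/J background. UCP2 is a carrier protein of the inner mitochondrial membrane. WT mice were littermates without the transgene. All samples came from male mice, which were 8 to 12 weeks old when islets were taken according to the methods, and all islets of both groups were kept for 8 hours in RPMI 1640 medium with 200 mg/dL glucose and 10% FBS. The methods for islet work also describe an overnight culture after isolation, before any treatment. The labels do not say whether a sample is a single mouse, so that p-values measure the spread between samples, part of which may be technical.

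*Ucp2* followed the labels, with a normalized log2 signal of 7.38 ± 0.31 in βUCP2Tg and 1.15 ± 0.23 in WT islets (SD, n = 4 each, limma adjusted p = 9.32e-06). Normalized log2 signals are relative to the 75th percentile of each array, which is set to 0, so that 1 unit is a 2-fold change. Markers of β-cells and other endocrine cells were detected on every array. On WT replicates 1 and 3, 2 of the scanner's 10 quality metrics lay outside their limits, and on the other arrays none did. The scan names of the 4 WT arrays share one position code and those of the 4 βUCP2Tg arrays another. The labels do not say what the code stands for, and code and genotype cannot be told apart. Islets hold several cell types, and a lower signal from fewer cells of a type cannot be told apart from less RNA per cell.

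For most of the genes a single probe sequence stands behind the values below. The probes that follow are shown because different probes of a gene disagreed, or because several probes of a gene gave the same direction. Capitals mark bases that lie in a stretch of 16 bases also present, on either strand, in a probe of another gene, and each sequence is printed as it was deposited.
*Il1b* A_51_P212782: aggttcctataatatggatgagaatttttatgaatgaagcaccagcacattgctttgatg
*Il1b* A_66_P114500: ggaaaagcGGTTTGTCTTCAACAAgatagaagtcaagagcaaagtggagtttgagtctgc
*Il1b* A_55_P2720183: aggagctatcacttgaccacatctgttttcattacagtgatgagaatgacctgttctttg
*Il24* A_55_P2127215: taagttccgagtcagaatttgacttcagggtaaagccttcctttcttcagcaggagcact
*Il24* A_55_P1981224: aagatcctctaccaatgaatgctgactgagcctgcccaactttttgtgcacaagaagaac
*Cxcl12* A_51_P172502: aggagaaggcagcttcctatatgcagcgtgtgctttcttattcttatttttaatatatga
*Cxcl12* A_55_P1966204: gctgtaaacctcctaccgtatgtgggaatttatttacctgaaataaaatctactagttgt
*Cxcl11* A_55_P2160387: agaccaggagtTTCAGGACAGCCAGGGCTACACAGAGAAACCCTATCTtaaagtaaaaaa
*Cxcl11* A_55_P2044413: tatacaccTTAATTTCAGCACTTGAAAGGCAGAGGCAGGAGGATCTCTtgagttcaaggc
The *Cxcl11* probe A_55_P2160387 shared such stretches with 23 probes of other genes and with 55 of the 32851 promoter sequences described below, and the second *Cxcl11* probe with 4 probes and 10 promoters. Among the other 68 probes, 10 shared a stretch with a probe of another gene, each with 1 such probe, and none with more than 2 promoters. *Cxcl11* values are therefore given as the signal of these probes.

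Of the 45 genes, 36 stood well above background on 4 or more arrays and were tested, and 27 of these did so on all 8. *Cxcl13*, *Cxcl15*, *Cxcl17*, *Ccl22*, *Ccl24* and *Ccl26* were well above background on no array. *Ccl8* was well above background on 1 WT array, *Il1a* on 2 WT arrays, and *Ccl19* on 2 βUCP2Tg arrays and 1 WT array. These 9 genes were not tested, and no level is compared for them.

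**Figure D1:**
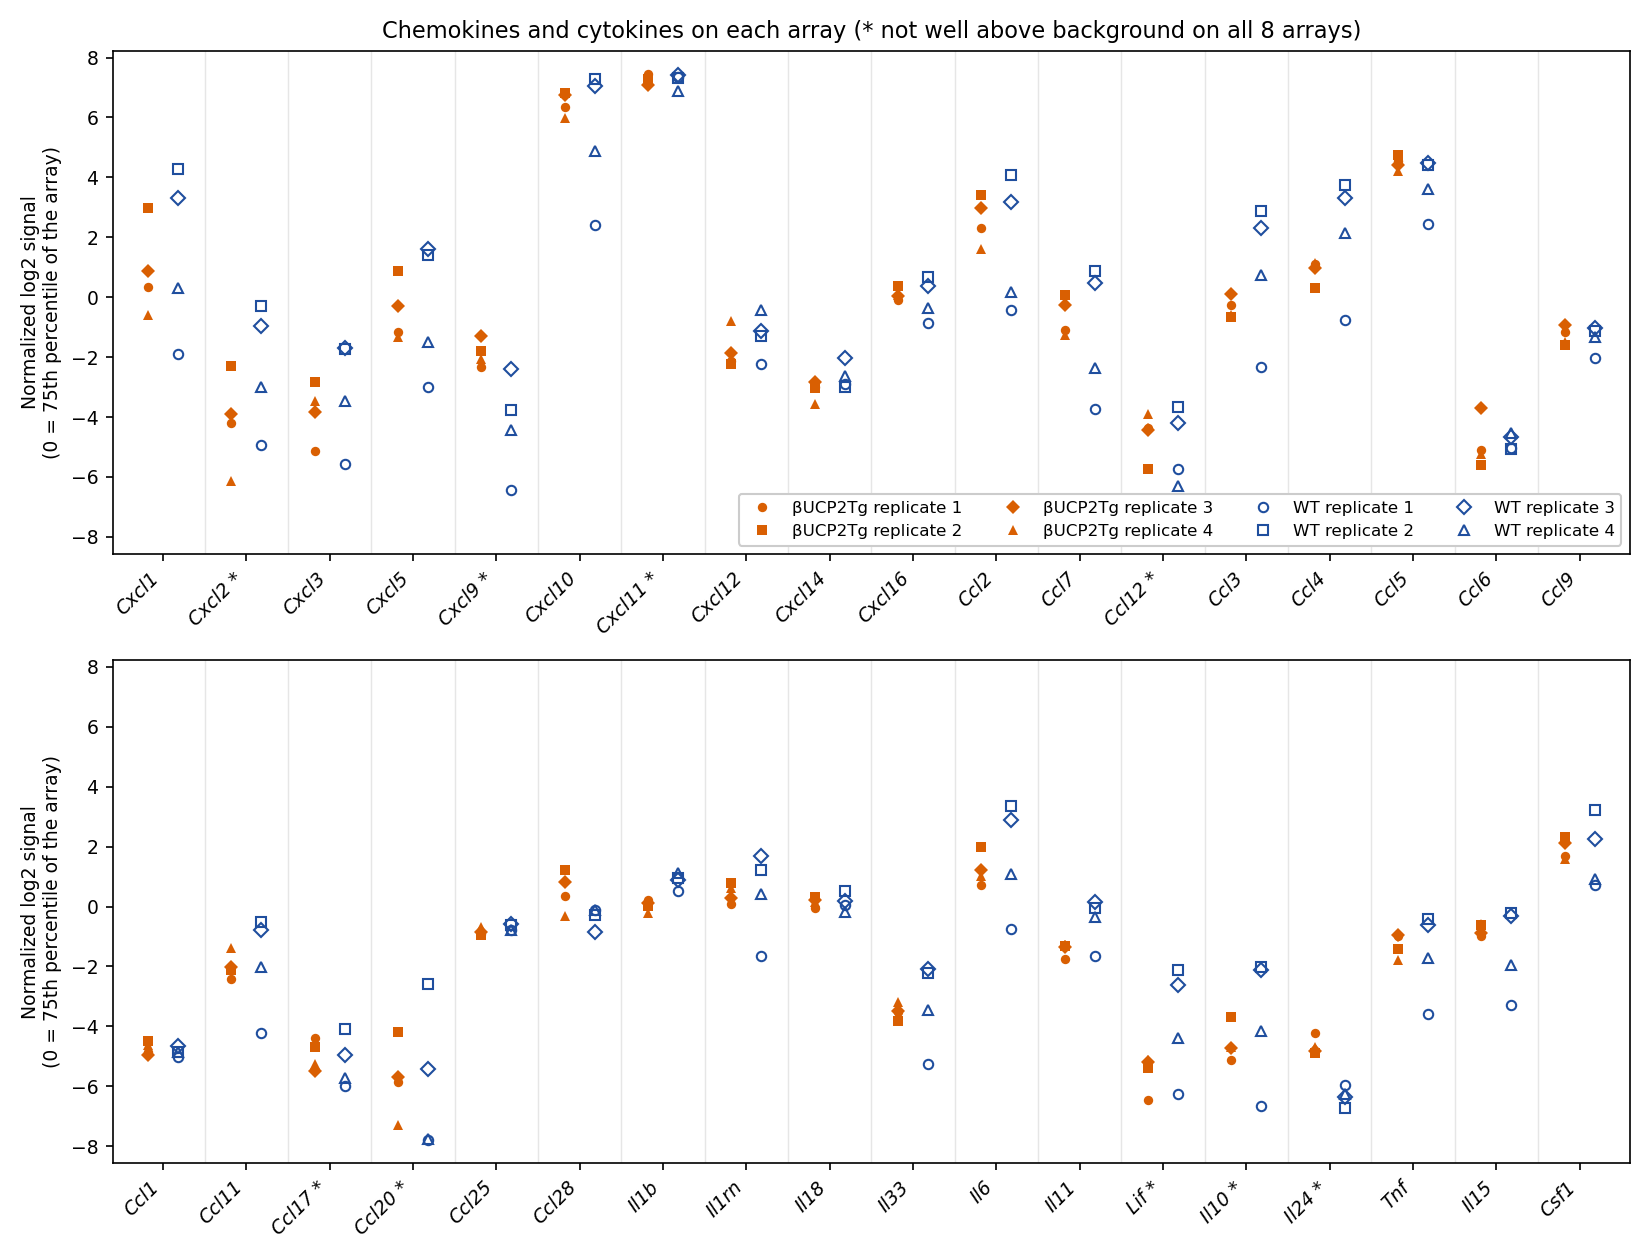
Normalized log2 signal (0 is the 75th percentile of each array) of the 36 tested chemokine and cytokine genes, with 1 point per array, βUCP2Tg filled and WT open, and 1 marker shape per replicate number. WT replicate 1 lies lowest and WT replicate 2 or 3 highest of the WT arrays for most genes. The βUCP2Tg arrays have the smaller SD for 32 of the 36 genes (88.9%), as they do for 75.6% of all genes tested.

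These genes varied widely among the WT samples. Among the 27 genes well above background on all 8 arrays, the WT arrays spanned more than 4-fold for 16 genes (59.3%), against 2.94% of all 16471 genes detected to the same extent. The βUCP2Tg arrays spanned more than 4-fold for 3 of these 27 genes (11.1%), *Cxcl1*, *Cxcl3* and *Cxcl5*, against 0.692% of all genes. WT replicate 1 was the lowest WT array for 22 of the 27 genes (81.5%, all genes 26.7%), and WT replicate 2 or 3 was the highest for 23 (85.2%, all genes 34.3%). All βUCP2Tg arrays lay inside the WT range for 18 genes (66.7%, all genes 29%). The SD was larger among the WT than among the βUCP2Tg arrays for 23 of the 27 genes (85.2%, all genes 76.5%). These counts were chosen after the values were seen and carry no test. Without WT replicate 1, the other 3 WT arrays spanned more than 4-fold for 8 of the 27 genes, against 1.2% of all genes. Averaged over the 27 genes, each taken relative to its mean over the 8 arrays, the log2 level was -1.51 on WT replicate 1, 1.02 on replicate 2, 0.88 on replicate 3 and -0.24 on replicate 4. On the βUCP2Tg arrays the same average ran from -0.25 to 0.21.

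The wide WT range was present on separate probes of the same genes. For the 7 genes with a wide range that had a further tested probe, 9 such probes were measured, 8 of them spanned more than 4-fold among the WT arrays, and WT replicate 1 was lowest on 8. On the second *Il6* probe, for example, the WT arrays read -1.92, 2.12, 1.77 and 0.07 for replicates 1 to 4, and on the main probe -0.76, 3.36, 2.90 and 1.07. The exception in range was the second *Tnf* probe, with a span of 1.24 log2 units.

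**Figure D2:**
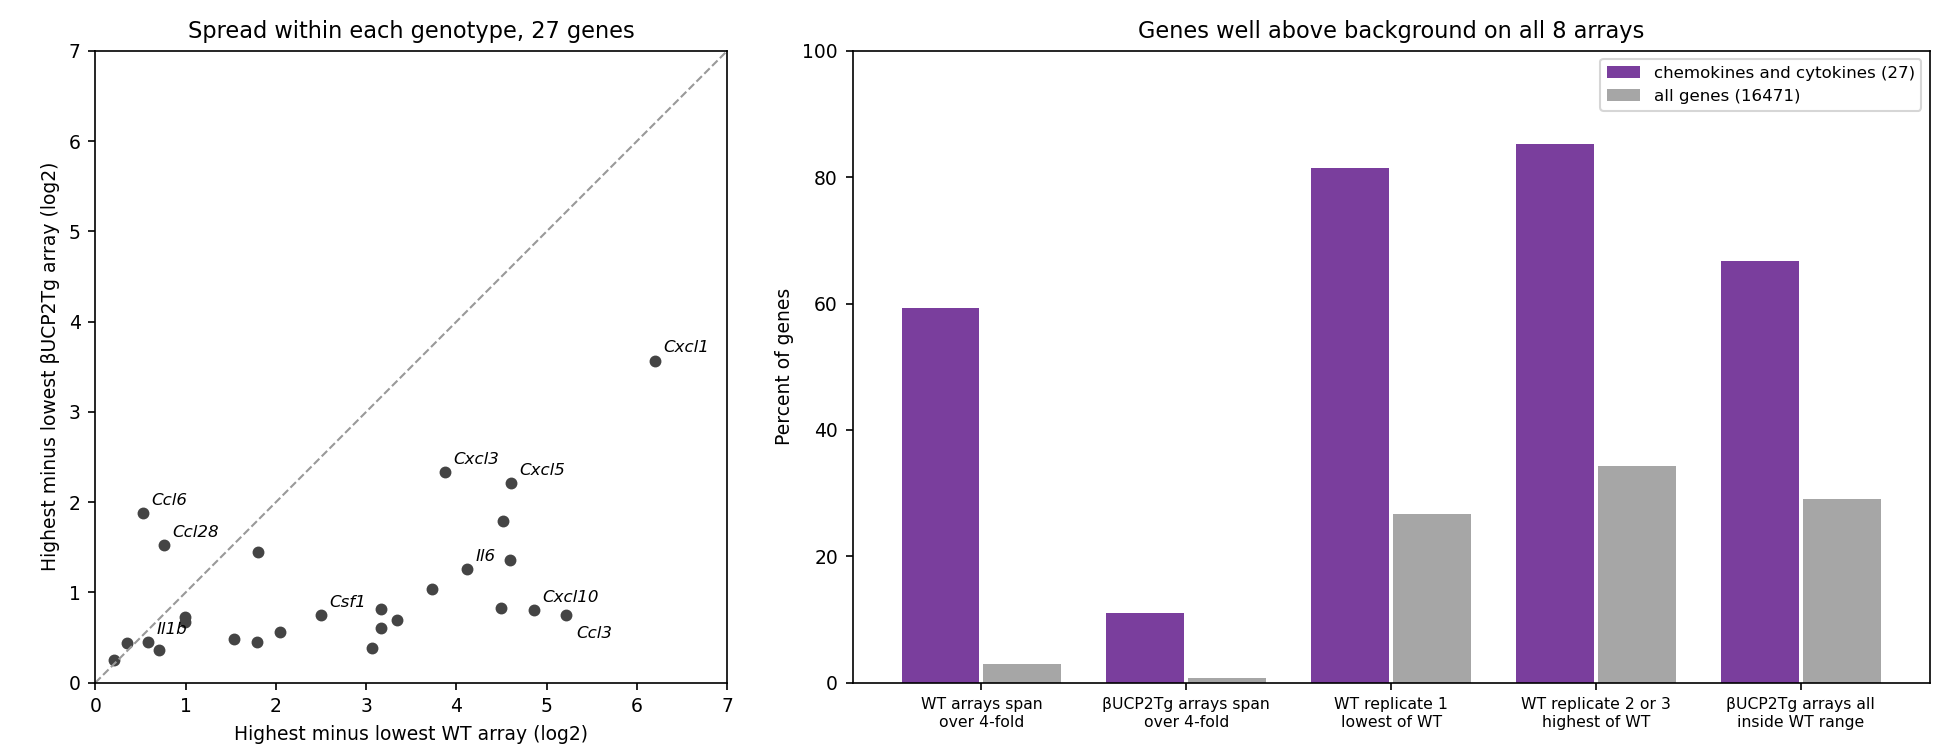
Left, the range of normalized log2 signal among the 4 WT arrays (x axis) and among the 4 βUCP2Tg arrays (y axis) for the 27 genes well above background on all 8 arrays, with the dashed line where both are equal. Right, the percent of those genes and of all 16471 genes that meet each description, such as 59.3% against 2.94% for a WT range over 4-fold.

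Against this spread, 1 of the 36 tested genes passed the test between genotypes (limma, adjusted p under 0.05 over all probes tested and a fold change over 1.5). It was *Il24*, which entered the test through the βUCP2Tg arrays and was at background on most WT arrays, and with no filter on dim probes limma called none of the 45 genes. Over all 17857 genes tested, 0.482% were called, 0.274% as higher and 0.207% as lower. At an unadjusted p under 0.05, 3 genes were higher (*Cxcl9*, *Ccl28* and *Il24*, all genes 12.9%) and 2 lower (*Il1b* and *Il11*, all genes 11.6%), against 24.5% of all genes in either direction. Non-overlapping groups of arrays were found for *Il24* and *Cxcl9*, which were higher (6.36% of all genes), and *Il1b*, which was lower (6.74% of all genes), against 13.1% of all genes in either direction. The median log2 difference over the 36 genes was 0.02, and over all genes 0.03. With 4 arrays in each group the smallest p of the two-sided exact permutation test is 0.0286, and these 3 genes reached it.

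**Figure D3:**
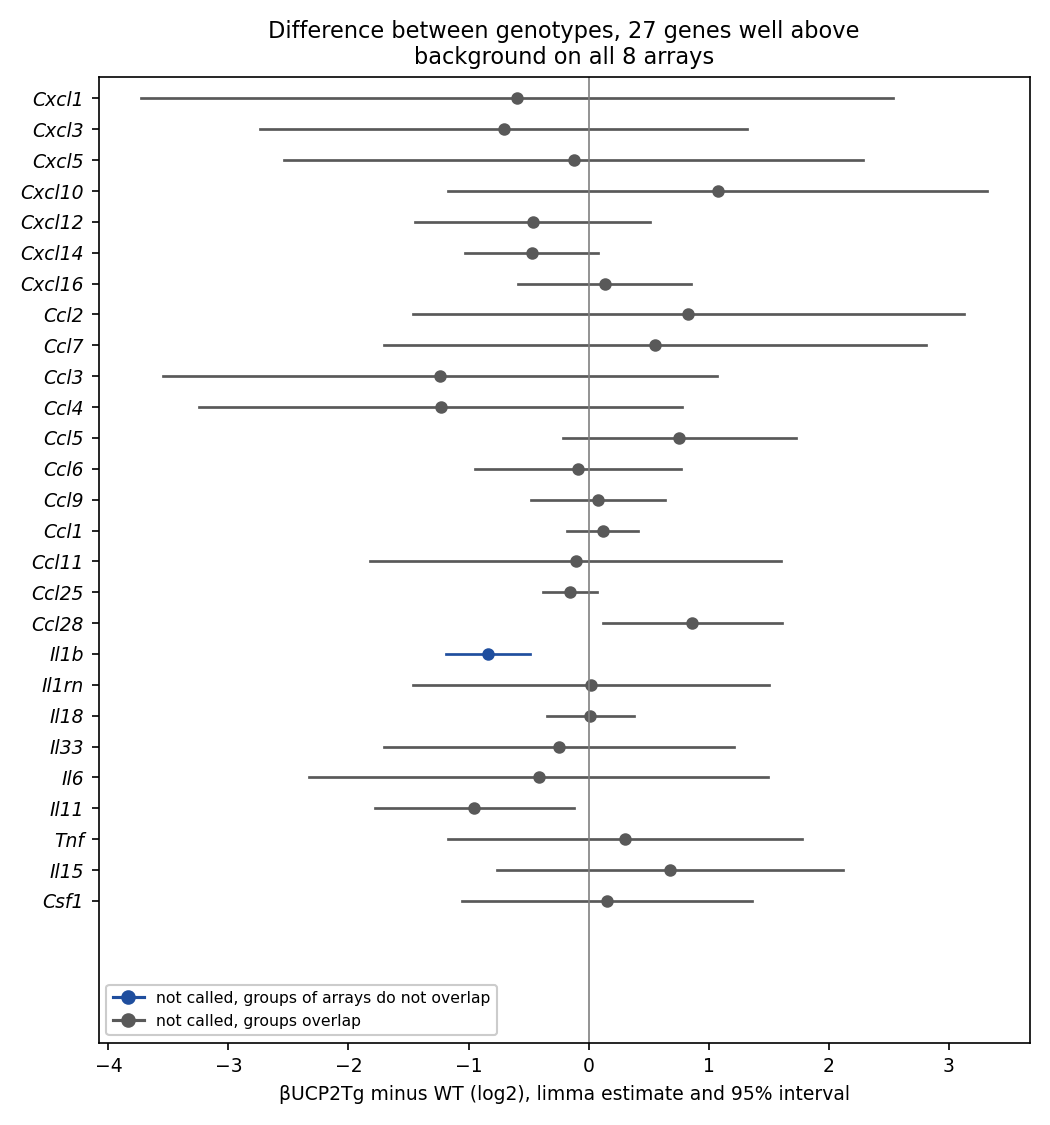
Log2 difference between βUCP2Tg and WT islets (points) with its 95% interval from limma (lines) for the 27 genes well above background on all 8 arrays. The interval lies above 0 for *Ccl28* and below 0 for *Il1b* and *Il11*, and none of the 27 passed the adjusted test.

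The neutrophil-attracting CXC chemokines, ligands of the receptor CXCR2, varied widely in both groups. *Cxcl1*, which is a main neutrophil attractant in mice, read 0.34, 2.96, 0.88 and -0.60 on βUCP2Tg arrays 1 to 4 and -1.91, 4.29, 3.30 and 0.29 on WT arrays 1 to 4. The WT arrays therefore spanned 73.4-fold and the βUCP2Tg arrays 11.9-fold, and every βUCP2Tg array lay inside the WT range. The log2 difference of -0.60 ± 1.37 (SE, adjusted p = 0.813) was smaller than its error.

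*Cxcl2*, a close relative of *Cxcl1*, read -4.196, -2.31, -3.90 and -6.13 in βUCP2Tg and -4.95, -0.28, -0.96 and -2.98 in WT islets. On βUCP2Tg replicate 4 it was not well above background. Its log2 difference of -1.84 ± 1.12 (adjusted p = 0.333) had an interval from -4.41 to 0.72. *Cxcl3* read -5.15, -2.81, -3.84 and -3.46 in βUCP2Tg and -5.55, -1.74, -1.68 and -3.45 in WT. *Cxcl5* read -1.18, 0.87, -0.29 and -1.34 in βUCP2Tg and -2.98, 1.41, 1.62 and -1.49 in WT. For all 4 genes βUCP2Tg replicate 2 was the highest βUCP2Tg array and WT replicate 1 the lowest WT array, and the groups overlapped. βUCP2Tg replicate 2 was the highest βUCP2Tg array for 17 of the 36 tested genes (47.2%, all genes 26.2%). The differences for *Cxcl3* and *Cxcl5* were -0.71 ± 0.88 and -0.12 ± 1.05 (adjusted p = 0.646 and 0.955). *Cxcl15*, the lung-enriched member of this group, was at background throughout.

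The ligands of CXCR3, a receptor on activated T cells, are induced by interferons. *Cxcl9* read -2.32, -1.78, -1.29 and -2.06 in βUCP2Tg islets and -6.43, -3.75, -2.38 and -4.44 in WT islets. All 4 βUCP2Tg arrays lay above all 4 WT arrays, although the lowest βUCP2Tg array and the highest WT array, replicate 3, differed by little. On WT replicate 1 *Cxcl9* was not well above background, so that the size of the difference rests in part on a background value. The log2 difference of 2.39 ± 0.74 did not pass the adjusted test (adjusted p = 0.115, exact permutation p = 0.0286), and it was 1.66 without that array and 1.02 with normexp, a background correction fitted by a model (adjusted p = 0.0525 and 0.0431).

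*Cxcl10* read 6.35, 6.80, 6.77 and 5.996 in βUCP2Tg and 2.42, 7.27, 7.06 and 4.87 in WT islets. Its WT arrays spanned 29.0-fold and its βUCP2Tg arrays 1.75-fold, with every βUCP2Tg array between WT replicates 4 and 3. The log2 difference was 1.08 ± 0.98 (adjusted p = 0.519) on this probe and -0.08 ± 1.18 (adjusted p = 0.974) on the second probe, whose WT arrays spanned 69.6-fold. The *Cxcl11* probe A_55_P2160387 read 7.46, 7.29 and 7.09 on βUCP2Tg replicates 1 to 3 and 7.36, 7.33, 7.41 and 6.90 in WT islets. Its spot on βUCP2Tg replicate 4 was marked as an outlier and left out, so that n = 3 for that group. This probe did not vary with *Cxcl9* and *Cxcl10*, and, like the second *Cxcl11* probe, it holds shared stretches printed above. The second *Cxcl11* probe read 1.21 to 1.44 in βUCP2Tg and 1.62 to 2.25 in WT islets without overlap, a log2 difference of -0.79 ± 0.16 (adjusted p = 0.0663).

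Among the other CXC chemokines, *Cxcl12*, the ligand of CXCR4 made by stromal cells, gave different values with its 2 probes. On the main probe the groups overlapped, with -2.23 to -0.78 in βUCP2Tg and -2.24 to -0.44 in WT islets (difference -0.47 ± 0.43, adjusted p = 0.524). The probe A_55_P1966204, deposited for another transcript of the gene, read -4.39, -4.34, -4.72 and -4.44 in βUCP2Tg and -3.41, -2.62, -3.28 and -3.71 in WT islets. All βUCP2Tg arrays were below all WT arrays on it, and the difference of -1.22 ± 0.22 lay just outside the threshold (adjusted p = 0.0585). *Cxcl14*, expressed mainly in epithelia, and *Cxcl16*, a membrane-bound ligand of CXCR6, had overlapping groups, with differences of -0.47 and 0.13.

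Monocyte-attracting CC chemokines, which act on CCR2, had overlapping groups. For *Ccl2* and *Ccl7* WT replicate 1 was the lowest WT array, and for *Ccl12* WT replicate 4. *Ccl2*, the main monocyte attractant, read 2.31, 3.41, 2.96 and 1.62 in βUCP2Tg and -0.44, 4.08, 3.18 and 0.16 in WT islets. *Ccl7* read -1.09, 0.08, -0.26 and -1.28 in βUCP2Tg and -3.72, 0.87, 0.47 and -2.37 in WT islets. For both genes each βUCP2Tg array lay above WT replicates 1 and 4 and below WT replicate 2, and the WT arrays spanned 22.8-fold and 24.1-fold. *Ccl12*, a mouse relative of *Ccl2*, read -4.35, -5.72, -4.42 and -3.91 in βUCP2Tg and -5.73, -3.65, -4.20 and -6.29 in WT islets, and was not well above background on 1 WT array. The log2 differences of these 3 genes were 0.83 ± 1.00, 0.55 ± 0.99 and 0.37 ± 0.63, each smaller than its error (adjusted p = 0.633, 0.756 and 0.743).

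The CC chemokines *Ccl3*, *Ccl4*, *Ccl5*, *Ccl6* and *Ccl9*, which attract leukocytes, differed among themselves in their spread. *Ccl3* read -0.28, -0.65, 0.10 and -0.58 in βUCP2Tg and -2.35, 2.86, 2.30 and 0.73 in WT islets. *Ccl4* read 1.11, 0.30, 0.97 and 1.13 in βUCP2Tg and -0.75, 3.75, 3.31 and 2.13 in WT islets. For both, βUCP2Tg arrays were below WT replicates 2, 3 and 4 and above WT replicate 1, and the differences of -1.24 ± 1.01 and -1.23 ± 0.88 did not pass the test (adjusted p = 0.468 and 0.407). Without WT replicate 1 both passed, with differences of -2.31 and -2.18 (adjusted p = 0.0256 and 0.0191), in a fit that called 11.4% of all genes, against 0.482% with all arrays. *Ccl5* was 4.201 to 4.76 in βUCP2Tg and 2.43 to 4.48 in WT islets (difference 0.76 ± 0.42, adjusted p = 0.298). *Ccl6* and *Ccl9*, made by myeloid cells, varied less among the WT arrays, by 1.44-fold and 1.996-fold, and had differences of -0.09 and 0.08.

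Of the other CC chemokines, *Ccl28*, an epithelial attractant for CCR10-bearing cells, read 0.36, 1.21, 0.83 and -0.31 in βUCP2Tg and -0.13, -0.28, -0.86 and -0.10 in WT islets. Its βUCP2Tg replicate 4 lay among the WT arrays, and the difference of 0.87 ± 0.32 did not pass the adjusted test (adjusted p = 0.154). It was one of the genes for which WT replicate 1 was not the lowest WT array. *Ccl11*, the eosinophil attractant eotaxin, was -2.44 to -1.39 in βUCP2Tg and -4.23 to -0.50 in WT islets. *Ccl20*, the CCR6 ligand, was well above background on 2 arrays of each group, with overlapping groups, and its level is not compared between genotypes. Differences for it appear below only to show how they changed with the processing, and they rest in part on background values. *Ccl1*, *Ccl17* and *Ccl25* had overlapping groups with differences of 0.12, 0.23 and -0.16, and the difference of *Ccl11* was -0.11. A second *Ccl25* probe read -4.53 to -4.30 in βUCP2Tg and -4.21 to -3.87 in WT islets without overlap, a difference of -0.35 ± 0.11 that did not pass the adjusted test (adjusted p = 0.12).

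In the IL-1 family, *Il1b*, which encodes the inflammatory cytokine IL-1β, read lower in βUCP2Tg than in WT islets without overlap between groups, by a narrow margin on A_66_P114500, and did not pass the adjusted test on any probe. The main probe read 0.22, 0.02, 0.11 and -0.22 in βUCP2Tg and 0.53, 0.96, 0.88 and 1.12 in WT islets. Its difference of -0.84 ± 0.15 is a 1.79-fold lower signal and lay just outside the threshold (adjusted p = 0.0578, exact permutation p = 0.0286). The probe A_66_P114500 differed by -0.71 ± 0.19 (adjusted p = 0.0941). The probe A_55_P2720183 read -4.64 to -3.94 in WT islets and was well above background on 1 of 4 βUCP2Tg arrays, so that it passed the filter through the WT arrays and no difference is given for it. Unlike most of the genes, *Il1b* varied only 1.502-fold among the WT arrays. Macrophages are the main source of IL-1β in islets, and the values of macrophage markers stand further below.

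*Il1rn*, which encodes the IL-1 receptor antagonist, read 0.09, 0.79, 0.29 and 0.63 in βUCP2Tg and -1.65, 1.23, 1.70 and 0.43 in WT islets, a difference of 0.02 ± 0.65 (adjusted p = 0.989). *Il33*, an alarmin of stromal cells, read -3.53, -3.81, -3.47 and -3.20 in βUCP2Tg and -5.26, -2.23, -2.09 and -3.46 in WT islets. Both followed the order of the WT arrays seen for the chemokines, and neither differed beyond its error. *Il18*, a cytokine matured by caspase-1, read -0.04, 0.32, 0.21 and 0.15 in βUCP2Tg and 0.04, 0.53, 0.19 and -0.17 in WT islets and did not follow it. The differences for *Il33* and *Il18* were -0.24 ± 0.64 and 0.01 ± 0.16 (adjusted p = 0.837 and 0.967). *Il1a*, the gene of IL-1α, was well above background on WT replicates 2 and 3 only.

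**Figure D4:**
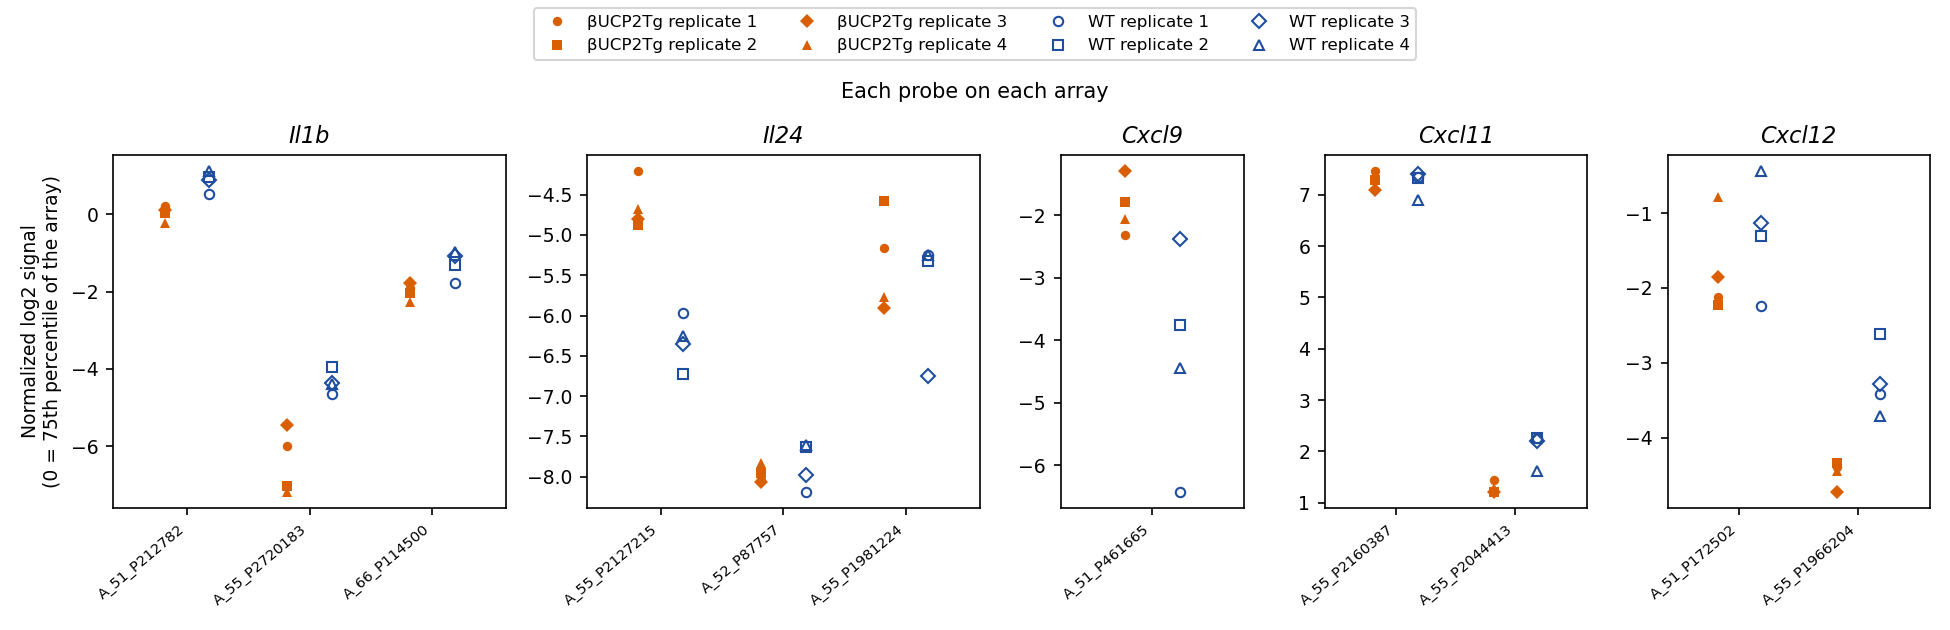
Normalized log2 signal (0 is the 75th percentile of each array) on every probe of *Il1b*, *Il24*, *Cxcl9*, *Cxcl11* and *Cxcl12*, with 1 point per array, βUCP2Tg filled and WT open. The *Il1b* probes read lower on the βUCP2Tg arrays, on A_55_P2720183 with 1 of 4 of them well above background, whereas the probes of *Il24* and of *Cxcl12* differ among themselves.

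The cytokines that signal through gp130 were higher on WT replicates 2 and 3 than on any βUCP2Tg array. *Il6* read 0.72, 1.98, 1.22 and 1.01 in βUCP2Tg and -0.76, 3.36, 2.90 and 1.07 in WT islets. *Il11* read -1.75, -1.32, -1.35 and -1.30 in βUCP2Tg and -1.65, -0.05, 0.14 and -0.36 in WT islets, so that WT replicate 1 alone lay among the βUCP2Tg arrays. *Lif*, which encodes leukaemia inhibitory factor, read -6.45, -5.38, -5.18 and -5.13 in βUCP2Tg and -6.27, -2.12, -2.62 and -4.38 in WT islets and was well above background on 3 arrays of each group. The log2 differences were -0.42 ± 0.84, -0.95 ± 0.36 and -1.69 ± 0.85, and none passed the test (adjusted p = 0.785, 0.157 and 0.249). Without WT replicate 1, *Il11* and *Lif* passed it with differences of -1.34 and -2.50 (adjusted p = 0.0124 and 0.0312), in the same fit that called 11.4% of all genes.

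*Il24*, a cytokine of the IL-10 family that signals through receptors containing IL20RB, was the gene that passed the test. Its main probe read -4.21, -4.88, -4.81 and -4.68 in βUCP2Tg and -5.97, -6.73, -6.35 and -6.25 in WT islets. All βUCP2Tg arrays lay above all WT arrays (adjusted p = 0.0278). The signal was dim, well above background on 4 of 4 βUCP2Tg arrays and 1 of 4 WT arrays, so that the gene passed the filter on dim probes through the group in which it was higher, which by itself favours a difference. On WT replicates 2, 3 and 4 it lay under the lowest signal of any probe well above background on the array (-5.86, -5.85 and -5.46), and no difference is given for it. The probe A_55_P1981224 read -5.16, -4.57, -5.91 and -5.77 in βUCP2Tg and -5.25, -5.32, -6.75 and -5.25 in WT islets, with overlapping groups. This probe was well above background on 2 of 4 βUCP2Tg and 3 of 4 WT arrays, and no difference is given for it. The third *Il24* probe was at background throughout. The call was lost when any one array other than βUCP2Tg replicate 4 or WT replicate 1 was left out, and also with normexp correction.

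*Il10*, the gene of the anti-inflammatory cytokine IL-10, read -5.11, -3.70, -4.71 and -4.70 in βUCP2Tg and -6.64, -2.01, -2.12 and -4.14 in WT islets (difference -0.83 ± 0.96, adjusted p = 0.619), and was not well above background on 1 WT array. *Tnf*, the gene of TNF-α, was -1.78 to -0.96 in βUCP2Tg and -3.59 to -0.42 in WT islets. *Il15*, which sustains natural killer and memory T cells, was -0.97 to -0.59 and -3.28 to -0.22. *Csf1*, the growth factor of macrophages, was 1.57 to 2.32 and 0.71 to 3.21. For these 4 genes every βUCP2Tg array lay inside the WT range, and the differences of the last 3 were 0.31, 0.68 and 0.16.

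Promoters of the genes were searched for letters of an NF-κB site, GGGANNTTC, and of an interferon-stimulated response element, GAAANNGAA, on both strands, in RefSeq sequences (GRCm38.p6) from 250 bases before to 50 bases after the start of each gene. Of the 45 genes, 31 had an entry. The NF-κB letters were present in 9 of them, *Ccl1*, *Csf1*, *Cxcl1*, *Cxcl2*, *Cxcl3*, *Cxcl9*, *Cxcl10*, *Il6* and *Tnf*, which is 29.0% against 3.94% of all 32851 promoters. The interferon element's letters were present in 6, *Ccl1*, *Ccl3*, *Ccl19*, *Cxcl9*, *Cxcl10* and *Cxcl14*, which is 19.4% against 8.56%. The promoters below belong to genes with the same order of WT arrays, and capitals mark the matches. In *Cxcl1*, *Cxcl2* and *Cxcl3* the NF-κB letters match on both strands and overlap, so that the capitals join to 1 run.
*Cxcl1* chr5:90890995-90891294 (+ strand): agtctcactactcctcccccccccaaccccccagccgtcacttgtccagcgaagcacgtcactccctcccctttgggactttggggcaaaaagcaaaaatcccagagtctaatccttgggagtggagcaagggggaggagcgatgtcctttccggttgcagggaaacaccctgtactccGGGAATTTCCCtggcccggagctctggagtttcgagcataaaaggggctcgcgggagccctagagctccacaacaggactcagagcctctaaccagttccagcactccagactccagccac
*Cxcl2* chr5:90903649-90903948 (+ strand): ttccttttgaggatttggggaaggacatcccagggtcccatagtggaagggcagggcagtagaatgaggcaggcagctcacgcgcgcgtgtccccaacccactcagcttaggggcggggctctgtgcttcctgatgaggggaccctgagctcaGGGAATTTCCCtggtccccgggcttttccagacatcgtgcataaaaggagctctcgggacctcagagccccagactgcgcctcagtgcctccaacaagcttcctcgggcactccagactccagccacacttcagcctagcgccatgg
*Cxcl3* chr5:90785851-90786150 (+ strand): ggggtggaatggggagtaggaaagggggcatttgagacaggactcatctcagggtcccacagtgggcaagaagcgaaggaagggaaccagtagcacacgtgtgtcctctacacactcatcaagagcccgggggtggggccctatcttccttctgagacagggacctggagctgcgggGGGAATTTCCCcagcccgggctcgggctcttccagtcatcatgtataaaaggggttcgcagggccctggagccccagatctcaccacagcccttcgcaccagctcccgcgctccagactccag
*Cxcl10* chr5:92348840-92349139 (- strand): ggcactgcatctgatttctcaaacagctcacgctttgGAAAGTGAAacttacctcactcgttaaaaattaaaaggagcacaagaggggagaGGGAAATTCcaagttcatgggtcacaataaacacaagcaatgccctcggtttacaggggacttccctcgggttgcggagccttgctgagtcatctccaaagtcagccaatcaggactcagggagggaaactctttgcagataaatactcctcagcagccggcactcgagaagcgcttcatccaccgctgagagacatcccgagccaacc
*Il6* chr5:30012864-30013163 (+ strand): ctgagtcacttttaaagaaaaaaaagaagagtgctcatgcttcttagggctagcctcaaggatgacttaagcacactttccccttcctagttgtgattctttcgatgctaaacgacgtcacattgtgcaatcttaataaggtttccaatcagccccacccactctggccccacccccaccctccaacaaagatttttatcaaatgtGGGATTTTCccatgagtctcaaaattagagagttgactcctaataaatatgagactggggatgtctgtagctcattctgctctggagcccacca
The match began 71, 97 and 73 bases before the start in *Cxcl1*, *Cxcl2* and *Cxcl3*, 159 bases before it in *Cxcl10* and 44 bases before it in *Il6*. In *Cxcl10* the interferon element's letters began 213 bases before the start. A match describes letters and does not show that a factor binds there.

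The NF-κB response genes had the same order of WT arrays as the chemokines. All 20 genes of a list of NF-κB response and feedback genes were tested, and WT replicate 1 was the lowest WT array for 18 of them and WT replicate 2 or 3 the highest for 19. Averaged over the 19 genes well above background on all arrays, the log2 level relative to each gene's mean was -1.11, 1.45, 0.96 and -0.08 on WT replicates 1 to 4, and -0.51 to -0.07 on the βUCP2Tg arrays. *Tnfaip3*, which encodes the feedback inhibitor A20, read 1.03, 1.47, 1.24 and 0.92 in βUCP2Tg and -0.08, 4.06, 3.08 and 1.501 in WT islets. *Nfkbia*, which encodes the inhibitor IκBα, read 4.39, 4.61, 4.47 and 4.30 in βUCP2Tg and 3.49, 6.33, 5.82 and 4.71 in WT islets. For both, the βUCP2Tg arrays lay between WT replicates 1 and 4. With limma none of the 20 genes was called, and 6 were lower and none higher at an unadjusted p under 0.05 (all genes 11.6% lower). The groups did not overlap for *Nfkb1* (-0.55 ± 0.24, adjusted p = 0.198) and *Cebpb* (-0.47 ± 0.15, adjusted p = 0.121), both lower in βUCP2Tg islets (all genes 6.74% lower without overlap). *Tnfaip3* and *Nfkbia* were named after their values were seen.

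Receptors for these ligands did not pass the test between genotypes. Of 23 chemokine receptors, 11 were tested, and with limma none was called and 2 had an unadjusted p under 0.05 (all genes 24.5%). *Cxcr4*, the receptor of CXCL12, read -1.81, -1.68, -1.59 and -1.95 in βUCP2Tg and -2.54, -2.30, -2.16 and -2.01 in WT islets, the one chemokine receptor whose groups did not overlap, against 13.1% of all genes (difference 0.49 ± 0.14, adjusted p = 0.101). *Ccr8*, a receptor of T cells, was the other, with a difference of -2.21 ± 0.56 and overlapping groups (adjusted p = 0.089). *Ccr1*, *Ccr2*, *Cxcr1* and *Cxcr2* were well above background on no array. Of 22 cytokine receptors, 19 were tested, and with limma none was called and the groups overlapped for each gene. Of the 19 differences, 9 were above 0 and 10 below, with a median of -0.05. The log2 of their summed signal, to which bright genes contribute most, was 6.46 to 6.55 in βUCP2Tg and 6.56 to 6.74 in WT islets (exact permutation p = 0.0286), and the nearest arrays of the groups almost met. Among them *Tnfrsf1a*, the main TNF-α receptor, was lower at an unadjusted p (-0.45 ± 0.15, adjusted p = 0.13) and *Il1rap*, the shared accessory chain of IL-1 receptors, higher (0.57 ± 0.22, adjusted p = 0.157).

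Markers of the cells that could carry these transcripts had the following values. Of 14 macrophage and leukocyte markers, 13 were tested and *Cd14*, a co-receptor for lipopolysaccharide, was called lower in βUCP2Tg islets (-2.10 ± 0.33, adjusted p = 0.048, all genes 0.207% called lower). The log2 of the summed signal of the 13 was 4.37 to 4.67 in βUCP2Tg and 4.73 to 5.03 in WT islets without overlap (exact permutation p = 0.0286), while *C1qa* was higher in every βUCP2Tg array than in any WT array, as were 6.36% of all genes. On WT replicate 1, where most of the chemokines were lowest, this sum was the highest of the 8 arrays, and on WT replicate 2 it was the lowest of the WT arrays. The part of macrophage RNA in the lower *Il1b* signal was not tested. Endothelial markers summed to 4.06 to 4.29 in βUCP2Tg and 3.43 to 3.998 in WT islets (7 of 7 tested, exact permutation p = 0.0286), lowest on WT replicates 2 and 3. The single markers did not move together, and none was called. *Kdr*, *Emcn*, *Plvap* and *Tie1* differed by 0.76, 1.01, 0.40 and 0.23, and *Pecam1*, *Cdh5* and *Esam* by -0.03, -0.12 and -0.36. For *Pecam1*, *Cdh5* and *Esam* the lowest WT array was replicate 1.

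Acinar markers (7 of 7 tested) summed to 3.58, 5.22, 3.98 and 7.82 on βUCP2Tg replicates 1 to 4 and to 7.27, 8.18, 8.62 and 4.23 on WT replicates 1 to 4. WT replicates 3 and 2 were thus the highest of the 8 arrays, as for many of the chemokines, while the lowest WT array was replicate 4. Duct markers (4 of 5 tested) summed to 4.62, 5.88, 5.69 and 5.11 on WT replicates 1 to 4, the order of the chemokines, and to 5.08 to 5.34 on the βUCP2Tg arrays, inside the WT range. *Spp1*, which encodes osteopontin and is also made by macrophages, read 3.46, 5.71, 5.46 and 4.57 on the WT arrays and made up most of this sum on WT replicates 2, 3 and 4. The keratin gene *Krt7* read 3.73, 2.63, 2.86 and 3.34 on them, the opposite order, and *Krt19* was highest on WT replicate 4. The 2 keratin genes also differed in opposite directions between genotypes, by 0.70 ± 0.24 for *Krt7* (adjusted p = 0.128) and, without overlap, by -1.63 ± 0.33 for *Krt19* (adjusted p = 0.0686). The part of acinar and duct RNA in the chemokine values was not tested.

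Of the neutrophil markers, *Cxcr2* was well above background on no array and *Csf3r* and *Ly6g* on all 8. *S100a8* was well above background on WT replicate 2 alone, and *S100a9*, which with *S100a8* encodes calprotectin, on WT replicates 2 and 3 and βUCP2Tg replicate 2, at 0.068, -4.06 and -5.13. These are the arrays on which *Cxcl1* was high, and the part of neutrophil RNA in the chemokine values was not tested. *Csf3r*, the receptor of G-CSF, had overlapping groups (-0.34 ± 0.17, adjusted p = 0.26). *Ly6g* read higher in βUCP2Tg islets without overlap, at -3.57 to -3.10 against -5.60 to -3.77 (1.17 ± 0.36, adjusted p = 0.115). Of the lymphocyte markers, *Cd3g* was well above background on no array and *Cd3e* and *Ms4a1* on all 8. *Cd3e* had overlapping groups (0.25 ± 0.20, adjusted p = 0.471), and *Ms4a1*, a B-cell gene, read lower in βUCP2Tg islets without overlap (-0.60 ± 0.19, adjusted p = 0.115). Fibroblast markers (6 of 7 tested) summed to 0.97 to 1.19 in βUCP2Tg and 0.11, 0.96, 1.44 and 0.74 on WT replicates 1 to 4. Their lowest WT array was also replicate 1, and their part in the chemokine values was not tested. β-cell markers summed to 9.92 to 10.3 in βUCP2Tg and 10.2 to 10.3 in WT islets. Bright *Ins1*, *Ins2* and *Iapp* make up most of this sum. On WT replicates 1 to 4 *Pdx1* read 4.06, 2.88, 3.12 and 3.69, *Nkx6-1* 4.73, 3.63, 3.95 and 4.30 and *Slc2a2* 0.77, -0.95, -0.59 and -0.19. These ran opposite to the chemokines, and the other β-cell markers did not. *Mafa* read lower in βUCP2Tg islets without overlap (-0.34 ± 0.10, adjusted p = 0.103), as did 6.74% of all genes. The part of β-cell RNA was not tested.

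**Figure D5:**
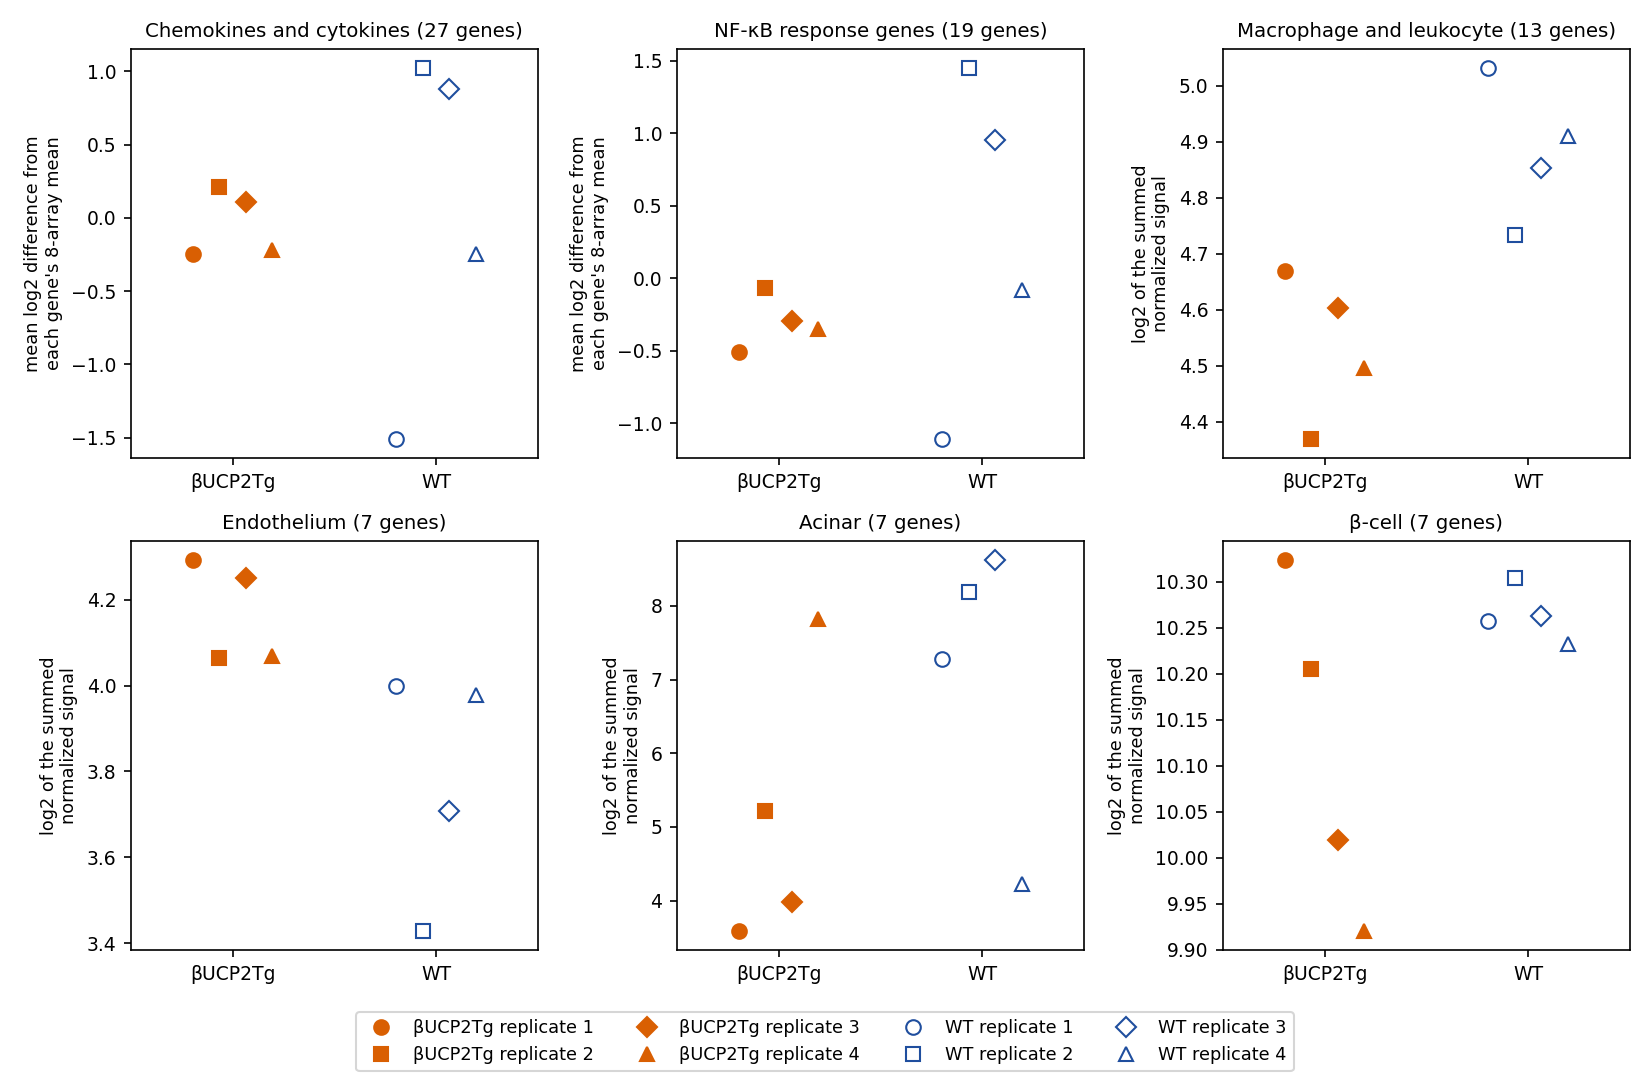
Level of 6 gene lists on each array, βUCP2Tg filled and WT open, with 1 marker shape per replicate number. The first 2 panels give the mean log2 difference from each gene's mean over the 8 arrays, from -1.51 to 1.02 for the chemokines and cytokines, and the others the log2 of the summed normalized signal. WT replicates 2 and 3 are high and replicate 1 low for the chemokines and the NF-κB response genes, whereas WT replicate 1 is the highest array for the summed macrophage markers and WT replicates 1, 2 and 3 are all high for the summed acinar markers.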

How the data were processed

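Expression was measured in islets of 4 βUCP2Tg and 4 WT samples. The authors scanned one-colour Agilent arrays and deposited, per array, Feature Extraction files with each spot's intensity on a linear scale after background subtraction, with no scaling between arrays. The tool is given as version 9.1 in the submitters' processing notes and as 10.7.3.1 in the file headers. The authors also deposited normalized log2 values from GeneSpring, which served to choose the probe with the highest mean for each gene and as an alternative. Columns of the authors' own comparison (fold change and p-values) were not used. Probe sequences are those deposited, and the file headers name the build mm9.

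Each array held 59305 spots besides controls, and spots marked as outliers were dropped. Processed intensities were put on the log2 scale, shifted to the array's 75th percentile and averaged over a probe's spots. Detection of a probe required 50% or more of those spots to be well above background. The 35363 probes detected on 4 or more arrays were fitted by limma (version 3.58.1 under R 4.3.3) with Benjamini-Hochberg correction over all of them. A call needed adjusted p < 0.05 together with more than a 1.5-fold change. Every tested gene is named, and values on every array are given for called genes, genes whose groups did not overlap, the 12 largest differences and the neutrophil, monocyte, CXCR3, IL-1 and gp130 groups. On simulated arrays of this size, 45% of probes changed 2-fold and 91% of those changed 4-fold were called, with 5 false calls among 35363 probes. The changed probes were drawn from all tested probes. The median SD among WT arrays was 0.23 log2 units over all genes and 1.45 over the 36 genes described here. Those shares therefore do not apply to these genes, and a gene that was not called may still differ. No spot was saturated, and the number of arrays limits the precision. Alternatives were other filters, normalizations, background correction, tests, a replicate block and leaving out each array. The genes, lists and tests were chosen with earlier results of these data known. Some genes of the receptor and marker lists are not reported here by name.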

Additional observations from a re-analysis of the deposited data

Results flagged for a closer look

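Among 71 groups of 4 arrays examined, 2 held an array that stood apart from the other 3, where chance gives about 1 in 20, or 3.55. The *Cxcl11* probe A_55_P2160387 read 6.90 on WT replicate 4 and 7.33 to 7.41 on the other WT arrays, a gap of 0.835 of the group's range (Dixon's test). *Il11* read -1.75 on βUCP2Tg replicate 1 and -1.35 to -1.30 on the other βUCP2Tg arrays, a gap of 0.883 of the range.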

How the results depend on the processing

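*Il24* was the called gene with the 75th percentile of all probes or of those measured on all arrays, quantile normalization, the deposited values, outlier spots kept, no fold limit and the replicate block (1 gene called in each). The count was 0 with no filter on dim probes and with the methods' t-test after adjustment, 3 with the methods' t-test before it (*Cxcl9*, *Il1b* and *Il24*), 2 with normexp correction (*Cxcl9* and *Il1b*) and 2 with an intensity trend (*Il1b* and *Il24*). It was 1, *Il1b*, with the filter at all 8 arrays and with the mean of a gene's probes, which includes the *Il1b* probe at background on most βUCP2Tg arrays. Leaving out each array in turn, it ran from 0 to 6. The 6 came without WT replicate 1 and were *Ccl3*, *Ccl4*, *Il1b*, *Il11* and *Lif*, lower, and *Il24*, higher, when 11.4% of all genes were called (2020, against 86 with all arrays). Without βUCP2Tg replicate 4 there were 2, *Il1b* and *Il24*. Over the alternatives, adjusted p ran from 0.0114 to 0.404 for *Il24* and from 0.0140 to 0.201 for *Il1b*.

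The median log2 difference stayed between -0.33 and 0.18. The number of genes with a WT range over 4-fold, 16 of 27, was 13 to 16 under 5 other scalings and spot rules and 8 to 16 when a WT array was left out, lowest without replicate 1. These settings were chosen after seeing the data.

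Without WT replicate 1 the difference fell to 0.081 for *Cxcl10*, 0.10 for *Ccl2* and 0.063 for *Il15*. Differences that did not pass the test changed sign as follows. With normexp they were -0.10 for *Ccl1*, -0.074 for *Ccl12*, -0.17 for *Ccl17*, -0.32 for *Ccl20*, -0.0045 for *Il18* and -0.010 for *Il1rn*, with quantile normalization 0.0015 for *Ccl6*, and with the mean of probes -0.013 for *Il1rn* and -1.13 for *Cxcl11*. The last joins the 2 *Cxcl11* probes, whose own differences were 0.04 and -0.79. On βUCP2Tg replicate 4 the bright probe was left out, so that the mean there was the dim probe alone, at 1.29. The -1.13 lies outside both differences for that reason and does not measure a difference between genotypes. This gene also gave -0.17 with the deposited values, -0.18 with outlier spots kept and -0.082 with the replicate block. Without 1 array at a time, the differences ran from -0.89 to 0.35 for *Ccl11*, -0.071 to 0.81 for *Ccl12*, -0.042 to 0.59 for *Ccl17*, -0.51 to 0.64 for *Ccl20*, -0.48 to 0.14 for *Ccl6*, -0.29 to 1.24 for *Ccl7*, -0.14 to 0.20 for *Ccl9*, -0.20 to 0.63 for *Csf1*, -1.73 to 0.33 for *Cxcl1*, -0.082 to 0.13 for *Cxcl11*, -0.14 to 0.37 for *Cxcl16*, -0.997 to 0.54 for *Cxcl5*, -0.091 to 0.14 for *Il18*, -0.67 to 0.44 for *Il1rn*, -0.91 to 0.15 for *Il33*, -1.22 to 0.16 for *Il6* and -0.36 to 0.70 for *Tnf*. Apart from the -1.13 for *Cxcl11*, the cause of these changes was not tested. The values for *Ccl20* rest in part on background values and do not measure a difference between genotypes.

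Same-numbered samples deviated together for replicate 1 (correlation 0.44) but not for replicates 2, 3 and 4 (-0.05, -0.01 and -0.24), and only replicate 1 correlated best with its own number. The numbers were therefore not taken to pair the samples, and the replicate block left 1 gene called.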
